A study of Elaeis guineensis with 2 samples.

Results

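Of the peaks called in oil palm fruit after immunoprecipitation with an antibody against EgAGL9, 563 of 7919 (7.11%, exact 95% binomial interval 6.55 to 7.70%) had another peak summit less than 1000 bp away on the same sequence. They were chosen by position alone. A summit is the base that the list marks as such within each peak, and summits were sorted along each sequence. The 563 peaks formed 285 pairs of neighbours in 278 groups, of which 271 held exactly 2 peaks and 7 held 3 peaks in a row, so that "pairs" describes nearly all of them. No run of 4 or more was found.

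The peaks come from chromatin immunoprecipitation with sequencing (ChIP-seq), which recovers the DNA bound to a protein with an antibody and counts the recovered fragments along the genome. The series holds 2 fruit samples of Elaeis guineensis, the African oil palm (labelled with the cultivar Jacq), both from tissue in which EgAGL9 was overexpressed. One is the immunoprecipitate made with the EgAGL9 antibody and the other is the input, made with no antibody. Each group has 1 sample, so no difference below carries a replicate check, and differences between peaks of the list are given with no test. There is no control immunoprecipitate and no fruit without the overexpression, so binding by the factor and unspecific enrichment cannot be told apart. The promoter that drove the overexpression and any pooling of fruit are not given in the sources used here.

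EgAGL9 is named for AGL9 of Arabidopsis, also called SEPALLATA3, a MADS-domain transcription factor that specifies floral organs. MADS-domain proteins bind as dimers to short AT-rich elements called CArG boxes. In Arabidopsis, SEPALLATA3 joins such dimers into tetramers, which can hold a pair of CArG boxes on the same DNA molecule and loop the stretch between them, so closely spaced binding sites are of interest for this family. CArG boxes, genes and genome sequence were not analysed here.

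Neighbouring summits were most numerous at short distances. Summits under 1000 bp apart accounted for 285 of 3994 distances between neighbours, and a further 224 lay between 1000 and 2000 bp. The next 3 kilobases held fewer, with 73 pairs from 2000 to 3000 bp, 86 from 3000 to 4000 bp and 84 from 4000 to 5000 bp. Within the first kilobase, the pairs were spread over 347 to 999 bp with a median of 692 bp (exact 95% interval 677 to 721 bp, n = 285) and quartiles of 575 and 857 bp. The fullest 100 bp lay between 600 and 700 bp, with 67 pairs, against 34 between 400 and 500 bp and 40 between 900 and 1000 bp. No summits were closer than 347 bp.

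**Figure D1:**
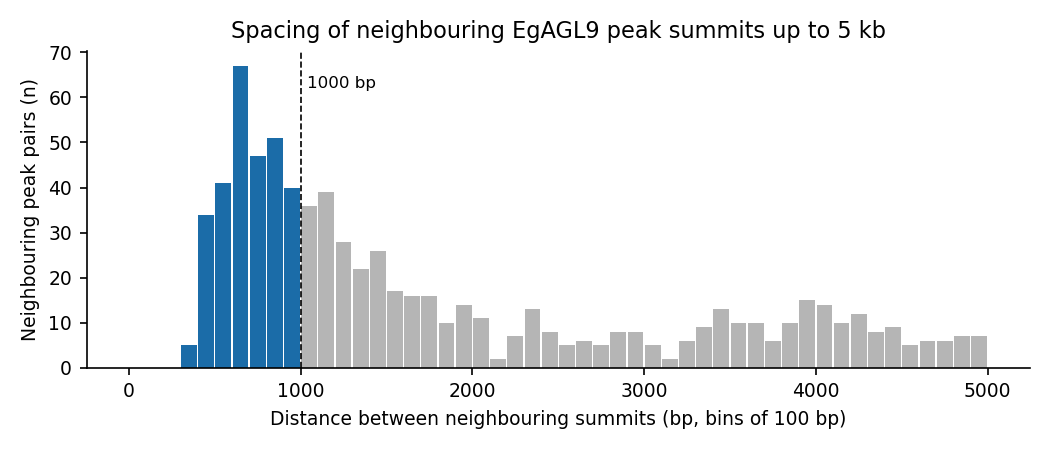
Number of neighbouring peak pairs (y axis) by the distance between their summits in bp (x axis, bins of 100 bp), with distances under 1000 bp in blue and longer ones in grey. Counts are highest between 600 and 700 bp (67 pairs) and fall to at most 20 per bin beyond 1500 bp.

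Peaks called separately have a gap between them, so a gap within each pair was given by the calling. No peak in the list was narrower than 191 bp, and no facing edges of neighbours were less than 194 bp apart, so the list holds no pair with a shorter gap. Parameters of the calling are not given, and its part in these lower limits and in the smallest summit distance was not tested. Between the members of a pair, the facing edges were a median of 415 bp apart (393 to 447 bp), from 194 to 809 bp. In 70 of the 285 pairs that gap was under 300 bp, and in 233 it was under 600 bp. From the start of the left peak to the end of the right one, a pair covered a median of 1039 bp (603 to 1707 bp over all pairs). The gap took a median of 41.2% of that stretch. The pileup inside the gaps is not in the list, so whether a pair was 2 separate sites or 1 uneven enriched region was not tested.

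The members were about as wide as other peaks. Their median width was 279 bp (268 to 291 bp, n = 563), and 5% of them were under 195 bp and 5% over 540 bp, against 272 bp (269 to 275 bp) in the 7356 other peaks. Within a pair the wider peak had a median of 333 bp and the narrower one a median of 231 bp. Widths of partners were barely related, with a Spearman rho of 0.09 over the 285 pairs, given as a description. In pairs whose summits were 300 to 500 bp apart (39 pairs), the median width was 233 bp. The part of the short distance in this was not tested. In the groups of exactly 2, summits sat a median of 9 bp from the peak's centre on the side of the partner (5 to 18.5 bp, n = 542). The rule selects on summit distance, which can favour this, and its part was not tested. Over all neighbours with facing edges under 1000 bp, the median was 3.5 bp towards the partner (-0.5 to 7.5 bp, n = 786). Over all neighbours with summits 1000 to 2000 bp apart it was 5 bp on the far side (-5, interval -13 to 3 bp, n = 448).

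Most close pairs lay on unplaced scaffolds, as most peaks did. Of the 563 members, 459 were on 219 scaffolds, sequences with the prefix NW_ that are not placed on a chromosome, and 104 (18.5%, 15.4 to 21.9%) were on chromosome sequences with the prefix NC_. Chromosomes held 21.8% (20.9 to 22.8%) of the other peaks. Members made up 6.08% (4.99 to 7.32%) of the 1711 chromosome peaks and 7.39% (6.75 to 8.07%) of the 6208 scaffold peaks, and these intervals overlap. All 7 runs of 3 were on scaffolds.

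On chromosomes the 52 pairs were scattered. They fell on 14 of the 16 chromosome sequences, with 5 pairs each on NC_025994.1, NC_025996.1, NC_026001.1, NC_026004.1 and NC_026005.1. No pair was found on NC_026002.1, which had 71 peaks, or on NC_026007.1, which had 55. Members reached 12.0% of the peaks on NC_026005.1 (10 of 83) and on NC_026008.1 (6 of 50), and 3.70% on NC_025999.1 (4 of 108). With so few pairs per chromosome, these shares rest on counts of 0 to 10 members. From a chromosome pair, the nearest summit outside it was a median of 118300 bp away (61340 to 209600 bp), and 10 of the 52 pairs had one within 10000 bp.

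On scaffolds, close pairs were often the only peaks. In 120 scaffolds, holding 244 of the 459 scaffold members, the pair or run made up every peak of the sequence. Of the 630 scaffolds with exactly 2 peaks, 116 (18.4%) held them as a close pair. Where the last peak ended before position 5000 this was so for 75 of 184 scaffolds (40.8%), and where it ended later for 41 of 446 (9.19%). A last peak before position 5000 itself bounds the distance between summits, so the split partly fixes these shares. A short sequence likewise leaves no room for distant neighbours, but sequence lengths were not used here. A last peak before position 5000 applied to 37.0% (32.6 to 41.6%) of scaffold members and to 32.2% (31.0 to 33.4%) of other scaffold peaks. The other scaffold peaks include those alone on their scaffold, which cannot be members. Among other peaks on scaffolds with 2 or more peaks, it applied to 225 of 2940 (7.65%). The same bound on summit distance affects this comparison. Summits in the first 1000 bp of a scaffold were 15.3% (12.1 to 18.9%) of its members and 15.1% (14.2 to 16.1%) of the others.

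Close pairs sat where the input was deep. The expected pileup is the number of fragments over the summit that the input predicts at the depth of the immunoprecipitate, and it was recovered from the deposited fold and p. Its median was 38.0 fragments in members (33.8 to 44.0, n = 563) and 20.8 (19.9 to 21.8) in the other peaks, 1.82 times as high. The immunoprecipitate pileup at the summit was higher as well, at 96 fragments (83 to 108) against 55 (53 to 57). Peaks with the nearest summit 1000 to 10000 bp away lay between, with an expected pileup of 24.1 fragments (21.8 to 26.4, n = 1236), followed by 20.8 (19.0 to 22.2, n = 3311) at 10000 bp or more and 19.5 (17.6 to 20.8, n = 2809) in peaks alone on their sequence. On chromosomes only, the median was 27.1 (23.2 to 38.4, n = 104) in members and 18.1 (15.8 to 22.7, n = 289) in peaks with a neighbour at 1000 to 10000 bp. An expected pileup close to its lowest value in the list, 2.36 fragments, was rare: it was at most 2 times that level in 28 members (4.97%, 3.33 to 7.11%), against 17.7% (16.8 to 18.6%) of other peaks. The same lowest value was the minimum in every class of distance. Whether it is a floor set in the calling, with less input beneath it, was not tested. Deep input moved with closeness in these values, and its part in the calling of neighbouring peaks was not tested.

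**Figure D2:**
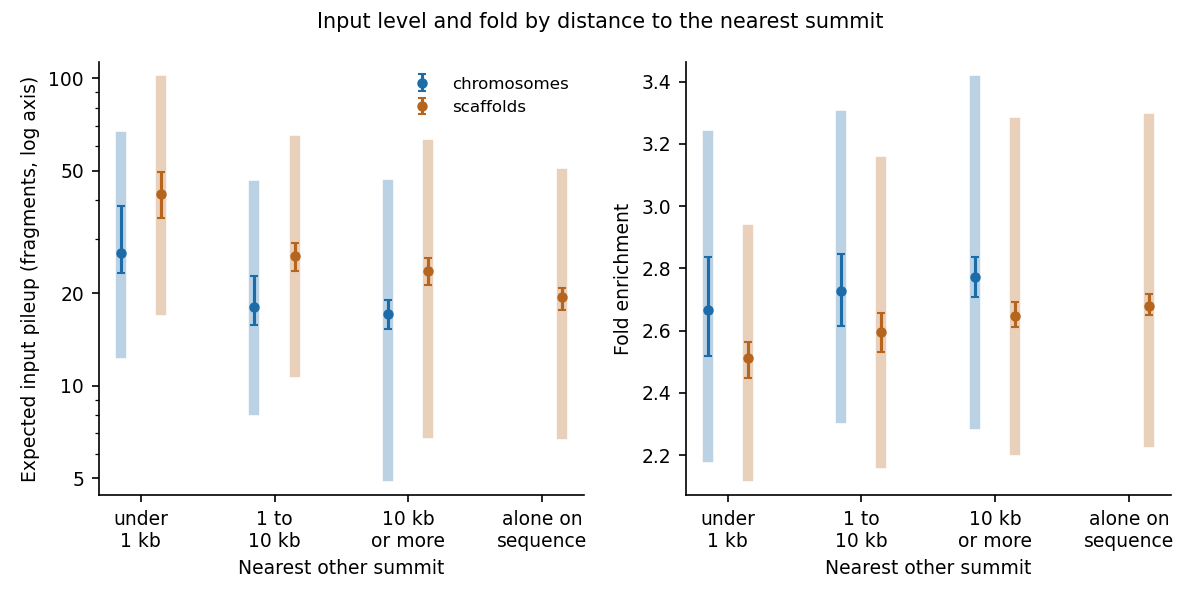
Expected input pileup in fragments (left, log axis) and the authors' fold enrichment (right) by distance to the nearest other summit, on chromosomes (blue) and scaffolds (brown). Points are medians with exact 95% intervals and pale bars span the quartiles. Members under 1 kb have the highest input medians and the lowest fold medians on both kinds of sequence. Their input intervals lie apart from those of the other distance classes on both. Their fold intervals overlap those of every other class on chromosomes, and on scaffolds only that of the next distance class.

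The fold enrichment of members was slightly lower than that of other peaks. The authors' fold is a linear ratio, the pileup plus 1 over the expected pileup plus 1, and its median was 2.54 (2.48 to 2.59) in members and 2.68 (2.66 to 2.70) in the others. Members ranged from 1.21 to 7.06, with 5th and 95th percentiles of 1.76 and 4.12. At a fold of 3 or more there were 135 members (24.0%, 20.5 to 27.7%), where 34.4% of all peaks reached it. For a fold of at least 4 the count was 33 members (5.86%, 4.07 to 8.13%), against 8.26% of all peaks, and for a fold of at least 5 it was 9 members (1.60%, 0.734 to 3.01%), against 1.70% of all peaks. The share at a fold of at least 3 was thus below the level of the whole list, while at a fold of at least 5 the interval includes it. The −log10 q, the authors' adjusted significance of each peak, went the other way. It had a median of 10.7 (9.57 to 12.0) in members and 6.52 (6.30 to 6.79) in the others, and 442 members (78.5%, 74.9 to 81.8%) had a value of at least 5, where 61.5% of all peaks did.

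Compared at like input, the fold of members was not lower. The whole list was divided by expected pileup into 10 equal bins, and the member median was above that of the other peaks in each bin. The intervals overlapped in every bin but the lowest. In bin 1, with an expected pileup of 2.36 to 3.24 fragments, the 9 members had a median fold of 4.77 (3.99 to 5.01) against 3.87 (3.86 to 3.87). In bin 2, the 27 members had a median of 4.04 (3.21 to 4.56) against 3.40 (3.36 to 3.45). In bin 10, with at least 119 fragments expected, the 90 members had a median of 2.31 (2.21 to 2.43) against 2.17 (2.13 to 2.24). In bins 3 to 9 the difference was between 0.03 and 0.09. The mean difference over the bins was 0.20, and 0.13 without bin 1, so the mean rests largely on bins 1 and 2, which hold few members. Members were unevenly placed over the bins, from 1.14% of the peaks in bin 1 to 12.8% in bin 9.

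**Figure D3:**
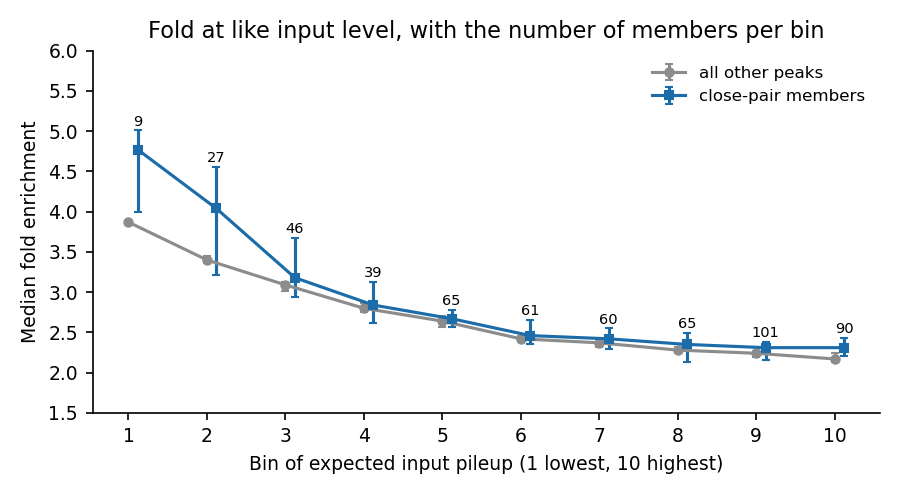
Median fold enrichment (y axis) in 10 equal bins of expected input pileup (x axis) for close-pair members (blue squares) and all other peaks (grey circles), with exact 95% intervals and the number of members per bin above each point. The member medians lie above the others in each bin, by 0.89 in bin 1 and by 0.14 in bin 10.

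Partners resembled each other mainly in coverage. Over the 285 pairs, the expected pileups of partners had a Spearman rho of 0.72 and the immunoprecipitate pileups a rho of 0.69. Partners come from the same 2 libraries, and these values are descriptions. The higher expected pileup of a pair was a median of 1.80 times the lower. For neighbours 1000 to 10000 bp apart (681 pairs) that factor was 2.36, with a rho of 0.39, and for neighbours at 10000 bp or more (3028 pairs) it was 3.64, with a rho of 0.02. The likeness in input thus fell with distance. It was also weaker at the far end of the first kilobase, where pairs 850 to 1000 bp apart had a median factor of 2.32 (rho 0.64, 75 pairs), against 1.62 (rho 0.86, 39 pairs) at 300 to 500 bp. How wide a stretch of input each expected pileup covers is not given. How far close partners share the same stretch of input, and so the same value, was not tested.

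The likeness in fold was weaker. The larger fold of a pair was a median of 1.23 times the smaller, with a rho of 0.33, and the factor was under 1.2 in 133 pairs, under 1.5 in 239 and under 2 in 281 of the 285. Neighbours 1000 to 10000 bp apart had a median factor of 1.24 (rho 0.19), and those at 10000 bp or more had 1.30 (rho 0.00). On chromosomes only, the factor was 1.25 (rho 0.38) in close pairs and 1.21 (rho 0.26) at 1000 to 10000 bp. At 10000 bp or more it was 1.30 there (rho -0.01). On the log2 scale, over all sequences, the difference within close pairs was 0.30 (0.25 to 0.32), against 0.38 (0.36 to 0.40) at 10000 bp or more. After the median of each bin of expected pileup was taken off the log2 fold, the difference was 0.30 (0.27 to 0.31) in close pairs and 0.27 (0.26 to 0.28) at 10000 bp or more, so the typical difference was not smaller in close pairs. The rho of these deviations was 0.10 in close pairs, 0.10 at 1000 to 10000 bp and -0.01 at 10000 bp or more. The median and the rho thus went different ways.

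**Figure D4:**
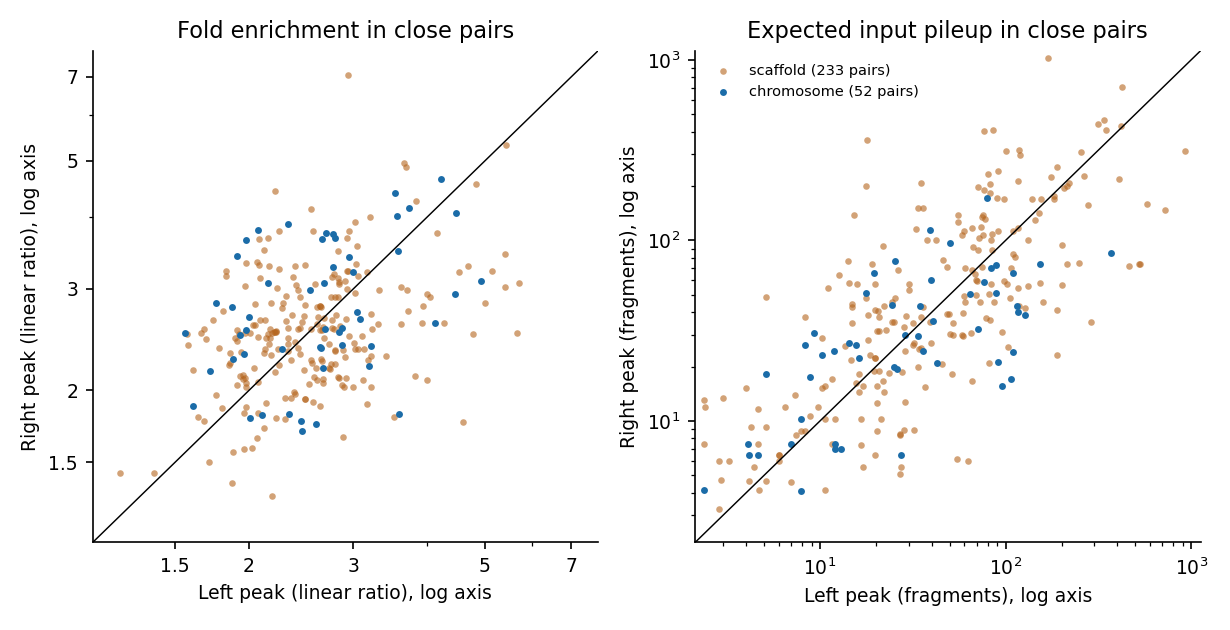
Each point is 1 of 285 close pairs, with the left peak's value on the x axis and the right peak's on the y axis (log axes), on chromosomes (blue) or scaffolds (brown); the line marks equal values. Fold enrichment (left, rho 0.33) scatters more widely around the line, relative to its range, than expected input pileup in fragments (right, rho 0.72).

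Both partners were often well above the calling limit. A −log10 q of at least 5 in both partners was found in 175 of the 285 close pairs (61.4%), in 350 of 681 pairs of neighbours 1000 to 10000 bp apart (51.4%) and in 1094 of 3028 at 10000 bp or more (36.1%). Taken singly, 78.5% of members reached that level. So did 68.5% of peaks with the nearest summit at 1000 to 10000 bp and 58.8% at 10000 bp or more. The order of the pair shares thus repeats that of single peaks. In 98 close pairs 1 partner reached that level and in 12 neither did. The higher immunoprecipitate pileup of a close pair was a median of 1.71 times the lower, against 2.08 and 2.87 times in the pairs further apart. In 252 of the 285 pairs the partner with the higher expected pileup also had the higher immunoprecipitate pileup, and in 161 it had the lower fold. The higher fold was on the left in 131 pairs, so neither side of a pair stood out. Folds of at least 4 in both partners were found in 4 of the 285 close pairs (1.40%), in 4 of 681 pairs at 1000 to 10000 bp (0.587%) and in 24 of 3028 at 10000 bp or more (0.793%), and 4 pairs are too few to compare. In 25 close pairs 1 partner reached that level.

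The counting intervals of partners seldom lay apart. For 225 pairs, whole input counts could be read from the expected pileups of both peaks, and a depth-scaled ratio of immunoprecipitate to input was set for each peak with its exact 95% interval. The intervals of partners did not overlap in 14 pairs (6.22%, 3.44 to 10.2%). This is a stricter measure than a test of the difference, which was not made, so overlapping intervals do not show equal ratios. The share was 4.88% (3.29 to 6.94%) for neighbours 1000 to 10000 bp apart and 6.50% (5.52 to 7.59%) at 10000 bp or more. The 14 pairs, 3 of them on chromosomes, had folds that differed by a factor of 1.18 to 1.84, on a median pileup of 248.5 fragments against 100 in the other pairs compared. The peaks of these pairs were thus deeper by the median, though some, such as peaks297 with 60 fragments, had fewer than 100. Intervals are narrower at deeper peaks, and the part of depth in this was not tested. The partner with the lower expected pileup had the higher ratio in 10 of the 14. On NC_025993.1, peaks73 had 205 immunoprecipitate fragments against an expected 107 (fold 1.91), while peaks74, 872 bp away, had 61 against 17.1 (fold 3.42).

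The pair whose lower fold was highest was peaks7113 and peaks7114 on NW_011577578.1 (4110 to 4320 and 5013 to 5231), the only pair of the 285 with both folds at 5 or more. The folds were 5.42 and 5.33, on 27 immunoprecipitate fragments against 9 input counts and on 29 against 10. Their depth-scaled ratios were 6.48 (exact 95% interval 2.96 to 15.7) and 6.26 (2.97 to 14.4), so the intervals overlap almost entirely and each spans several-fold. Next on scaffolds was peaks4413 with peaks4414 on NW_011552385.1 (15915 to 16221 and 16470 to 16676), with folds of 4.84 and 4.56 on 18 and 25 fragments. The pair peaks3818 and peaks3819 on NW_011551763.1 (134590 to 134860 and 135062 to 135351) rested on more fragments, 59 and 96, with folds of 3.82 and 4.26. The pair peaks2222 and peaks2223 on NW_011550983.1 (578638 to 579026 and 579408 to 579606) had 34 fragments at each summit and folds of 4.16 and 3.75.

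On chromosomes, the strongest pair by this measure was peaks6 and peaks7 on NC_025993.1 (3214797 to 3215152 and 3215371 to 3215669), with summits 658 bp apart and facing edges 218 bp apart. Peaks6 had 58 fragments against 28 input counts, a ratio of 4.47 (2.80 to 7.29), and peaks7 had 36 against 15, a ratio of 5.18 (2.77 to 10.2). The intervals overlap over most of their length. The pair peaks1446 and peaks1447 on NC_026005.1 (1318162 to 1318516 and 1319290 to 1319495) had folds of 4.47 and 4.06 on 14 and 20 fragments. The expected pileups were 2.36, the lowest level in the list, and 4.17. On NC_026001.1, peaks1186 and peaks1187 (36624625 to 36625078 and 36625498 to 36625690) had folds of 3.72 and 4.14 on 32 and 20 fragments.

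The closest summits were 347 bp apart, in peaks4360 and peaks4361 on NW_011552327.1 (131784 to 131991 and 132194 to 132387), with folds of 3.71 and 2.75 on 30 and 40 fragments. The next, at 352 bp, were peaks5304 and peaks5305 on NW_011554429.1 (9738 to 10013 and 10211 to 10575), with folds of 2.18 and 2.84. On NC_026004.1, peaks1372 and peaks1373 (5047059 to 5047347 and 5047602 to 5047912) followed at 372 bp, with folds of 2.65 and 2.37. The closest 5 were completed by peaks7196 and peaks7197 on NW_011579023.1 at 390 bp, with folds of 2.63 and 1.88, and by peaks1886 and peaks1887 on NW_011550924.1 at 399 bp, with folds of 2.06 and 1.65. The folds of these 10 peaks thus lay between 1.65 and 3.71.

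The pairs with the highest −log10 q in both partners were sites of very deep coverage. In peaks6375 and peaks6376 on NW_011564424.1, which belong to a run of 3, the values were 111 and 161, with ratios of 3.07 (2.70 to 3.50) and 3.17 (2.84 to 3.54). In peaks4586 and peaks4587 on NW_011552649.1 (154 to 766 and 1164 to 1632) they were 110 and 161, with ratios of 2.55 (2.29 to 2.82) and 2.57 (2.35 to 2.80). In both cases the intervals overlap over most of their length. On NW_011551365.1, peaks3229 (270114 to 270446) had 973 fragments and a ratio of 2.30 (2.10 to 2.52), while peaks3230 (270957 to 271458) had 1369 and a lower ratio of 1.94 (1.80 to 2.09), and these intervals do not overlap.

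The remaining pair of the 4 lay on NW_011555341.1, one of 2 scaffolds with 3 separate groups of close peaks. There, peaks5559 (6709 to 7115) had 2201 fragments against 1565 input counts, a ratio of 3.04 (2.84 to 3.24), and peaks5560 (7480 to 7724) had 491 against 319, a ratio of 3.32 (2.88 to 3.84). Near the scaffold's start, peaks5556 (108 to 328) had a fold of 5.40 on 82 fragments, with a ratio of 5.71 (3.74 to 8.94), beside peaks5557 (938 to 1176), with a fold of 3.45 and a ratio of 3.49 (2.78 to 4.40). In the third group, peaks5565 (33361 to 33837) had a ratio of 1.83 (1.68 to 2.0) and peaks5566 (34310 to 34969) one of 3.25 (2.65 to 4.0), which do not overlap. The 6 members made up 6 of the scaffold's 11 peaks. The other scaffold with 3 groups was NW_011550949.1, where 6 of 21 peaks were members, at folds of 1.86 to 3.28.

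The largest difference in fold within a pair was a factor of 2.60, between peaks6093 (4.59) and peaks6094 (1.76) on NW_011559992.1 (4830 to 5082 and 5878 to 6228). The partner with the lower fold had the higher pileup, 102 against 76 fragments. The member with the highest fold of all, peaks6319 on NW_011563488.1 (1760 to 2055), had 42 fragments against 11 input counts, a fold of 7.06 and a ratio of 8.24 (4.17 to 17.8). Its partner peaks6318 (966 to 1317) had a ratio of 3.02 (2.13 to 4.30), so that even this factor of 2.40 left the intervals overlapping. A factor of 2.26 separated peaks5736 (fold 5.66) and peaks5737 (2.51) on NW_011556186.1, and a factor of 2.01 separated peaks2957 (4.43) and peaks2956 (2.21) on NW_011551252.1. Peaks5736 had only 18 fragments against an expected 2.36, the lowest level in the list. Neither peaks5736 nor peaks2957 has a ratio interval, so these 2 pairs were not compared by interval.

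The 7 runs of 3 peaks spanned 900 to 1804 bp from the first to the last summit. In 4 of them, on NW_011551370.1, NW_011556114.1, NW_011586471.1 and NW_011588074.1, the 3 peaks were all the peaks of their scaffold. The tightest was on NW_011555495.1, where peaks5603, peaks5604 and peaks5605 (between 14855 and 16117) had summits 428 and 472 bp apart. Their ratios were 2.62 (2.13 to 3.24), 2.81 (2.40 to 3.29) and 2.36 (1.95 to 2.85), and all 3 intervals overlap.

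The runs with the highest median fold were on NW_011551370.1, NW_011564424.1 and NW_011554516.1. On NW_011551370.1 (346329 to 347911), peaks3236 had a fold of 3.20 on 202 fragments, peaks3237 one of 3.99 on 27 and peaks3238 one of 2.94 on 21. The middle peak had the highest fold, but its ratio of 4.48 had an interval of 2.24 to 9.47, which covers the other values. On NW_011564424.1 (2907 to 5082), peaks6374, peaks6375 and peaks6376 had folds of 2.58, 3.06 and 3.16, on 200, 585 and 806 fragments. On NW_011554516.1 (42518 to 44424), peaks5334, peaks5335 and peaks5336 had folds of 2.75, 2.90 and 3.09, on 436, 135 and 244 fragments. In each of these runs the fold varied less than the pileup did.

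**Figure D5:**
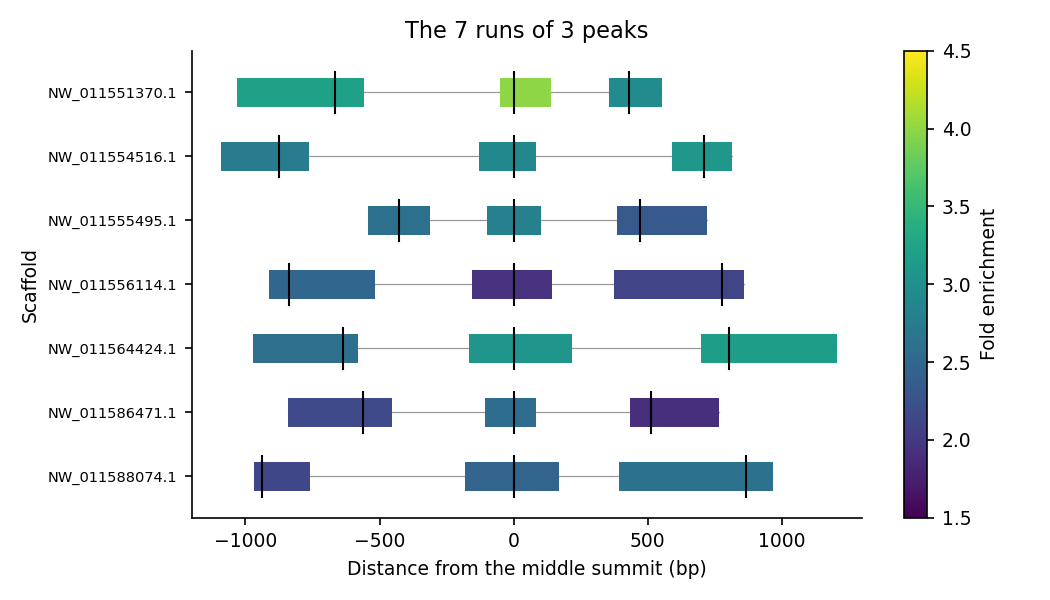
The 7 runs of 3 peaks, drawn to scale as bars from peak start to end, with black ticks at the summits, by distance in bp from the middle summit (x axis) and scaffold (y axis). Colour gives the authors' fold enrichment, which ran from 1.91 to 3.99, and the runs span 900 to 1804 bp between the outer summits.

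The summit distances nearest to the limit of 1000 bp fell on both sides of it. Just inside it were peaks5260 and peaks5261 on NW_011554279.1, 999 bp apart with folds of 2.22 and 2.53, and peaks6093 and peaks6094, 993 bp apart. Just outside were peaks1068 and peaks1069 on NC_026000.1, with folds of 4.40 and 3.53, and peaks2957 and peaks2958 on NW_011551252.1, with folds of 4.43 and 3.44, both 1001 bp apart. Peaks1068 and peaks2957 are themselves members through a neighbour on their other side.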

How the data were processed

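The members and comparisons were chosen with earlier results of these data known. The authors deposited 1 peak list in narrowPeak layout, called once from 1 immunoprecipitate and 1 input. The tools named per the submitters' processing notes are MACS2 2.1.1, BWA 0.7.8, HOMER, FastQC and ChIPseeker, with no roles or order. Parameters, genome build and treatment of duplicate reads are not given in the sources used here. Each peak has a deposited fold enrichment (a linear ratio), −log10 p and −log10 q at the summit, and a score that was not used further. Coordinates are 1-based on the list's RefSeq sequences. The gene table at hand is of another assembly and was not used.

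The whole-number immunoprecipitate pileup was searched for each peak at which the deposited fold (pseudocount 1) and the Poisson p both held. The largest residual was 0.029 of the change that 1 fragment makes. The expected pileup follows. In 7024 of 7919 peaks, and 502 of 563 members, it was a whole multiple of 0.463 within 0.02 plus rounding error, taken as 1 input count. It may stand for a fragment or for a single read end, and the depth of the libraries is unknown. Ratios are pileup over expected pileup, with exact Clopper-Pearson intervals at 95% for counting error only. Intervals on medians are exact binomial order-statistic intervals and treat peaks as independent, which neighbours are not. Neither measures a spread between samples. The pileup search was tested on simulated data.

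Named pairs are the 5 with the closest summits, the 6 and, on chromosomes, the 3 with the highest lower fold, the 4 with the highest lower −log10 q, the 4 with the largest factor between folds, the 2 on each side of 1000 bp, and the 3 runs of 3 with the highest median fold. Other named peaks were chosen after their values were seen. Python 3.11.15, numpy 2.4.6, pandas 2.3.3, scipy 1.17.1 and matplotlib 3.10.9 were used.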

Additional observations from a re-analysis of the deposited data

How the results depend on the processing

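The main rule gave 563 close-pair members, and members were sought anew under each alternative. There were 346 when only peaks with a −log10 q of 5 or more were kept before neighbours were sought. Limits on summit distance of 500 bp and 2000 bp gave 77 and 992, and chromosomes only gave 104. Facing edges under 1000 bp gave 768, and joining edges of 200 bp or less gave 557. The expected pileup of members was 1.82 times that of other peaks under the main rule. It was 1.60 times under that limit on −log10 q and 1.58 times on chromosomes only, and above 1 under every alternative run. The difference in median fold, -0.14, became 0.20 averaged over the 10 bins of expected pileup, and 0.13 over bins 2 to 10, an alternative chosen after seeing the data. It was negative under the other 5 alternatives. The cause was not tested. The difference in median width, 7 bp, became -40 bp with summits under 500 bp apart and -6.9 bp averaged over the bins; the cause was not tested. The difference in log2 fold between partners, less that of neighbours 10000 bp or more apart, was -0.08. It became 0.03 after the bin medians were taken off, -0.05 under 500 bp and on chromosomes only, and -0.23 where −log10 q replaced fold. The cause was not tested. No paired analysis was possible because there is a single immunoprecipitate and a single input, so leaving out samples in turn could not be done either. Sequence, CArG boxes and genes were not run. Counting error is widest for members with few fragments, of which the lowest pileup was 11.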
